A study of Homo sapiens with 9 samples.

Results

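The genes described here are 48 regulators of chromatin: subunits of the Polycomb repressive complexes, subunits of the SWI/SNF remodelling complexes, histone deacetylases, proteins of H3K9 methylation and heterochromatin, and histone demethylases. They were taken as a list of gene symbols by a rule that uses no measured value, although the list itself was drawn up with earlier results of these data known, and make up 48 of the 23619 genes in the deposited count tables. By complex they fall into 7 PRC2 genes, 11 genes of PRC1 and of the PR-DUB deubiquitinase, 11 SWI/SNF genes, 6 histone deacetylase (HDAC) genes, 10 genes of H3K9 methylation and heterochromatin, and 3 histone demethylase genes. All 48 passed the filter on low counts, as did 15532 genes in all.

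RNA was sequenced from RKO, an established human colorectal carcinoma cell line, in 9 libraries of cells grown for 48 h. Parental RKO gave 2 libraries, and 7 clones gave 1 each. Clones E3 and C10 are DIP2C-/-. The other 5 are DIP2C+/-, and their values are listed below in the order F6-A7, then H9-A4, then A9-A12, then G1-A5, then A6-C9. DIP2C, disco interacting protein 2 homolog C, carries a domain predicted to bind DMAP1, a protein of DNA methylation and histone acetylation complexes. The clones carry a short deletion in exon 9 of 1 or both DIP2C alleles, made with a recombinant adeno-associated virus, and the neo selection cassette was then removed with Cre. Each clone grew from a single cell, and both DIP2C-/- clones came from 1 DIP2C+/- clone by further targeting, a shared origin that the tests do not model. The study describes fewer heterozygous clones than the 5 libraries labelled DIP2C+/-. Whether some of these 5 share an origin is not given by the labels. The samples held no targeted clone with DIP2C intact, so cloning and selection cannot be told apart from loss of DIP2C. The labels do not say that the parental samples were separate cultures, so the spread between them may be technical. P-values rest on the spread within each group of a fit, to which the 5 DIP2C+/- clones contribute most when all libraries enter.

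Totals of 14772593 to 21486483 estimated counts per library were deposited, and 3 counts, taken as the limit of detection, correspond to 0.14 to 0.203 CPM (estimated counts scaled to a common library size). That limit covers counting error only. DIP2C itself stood at 61.0 and 70.9 CPM in parental cells, at 17.4 and 22.8 in the DIP2C-/- clones, and at 47.0, 56.3, 38.9, 41.7 and 33.6 in the DIP2C+/- clones. All 7 clones were below both parental samples, and H9-A4 was nearest to them. The colorectal markers CDX2, KRT18 and KRT8 were detected in every library, whereas KRT19, KRT20, CDH1, LGR5 and VIL1 were under 1 CPM. EPCAM was at 1.05 and 0.366 CPM in parental cells, 3.79 in H9-A4 and 0.0511 to 0.452 in the other clones. Summed markers of leukocytes, endothelium and fibroblasts lay between 0.46 and 4.2 CPM for each of these lists. The summed mesenchymal markers (VIM, ZEB1, CDH2 and FN1) were at 21.2 and 23.4 CPM in parental cells, 16.3 in H9-A4 and 55.0 to 124 in the other 6 clones. ZEB1 made up most of this sum. Its log2 fold change in the average of the clones was 1.97 with all libraries (SE 0.575, edgeR adjusted p = 0.27). Without H9-A4 it was called higher (2.19, SE 0.213, edgeR adjusted p = 1.04e-04). VIM and FN1 were called in neither fit, and CDH2 did not pass the filter on low counts. The part of the ZEB1 shift in the members' levels was not tested. H9-A4 stood apart from the other clones and nearer to parental cells. Its median absolute log2 difference from the parental mean was 0.25 over all genes tested, against 0.31 to 0.36 in the other clones. The parental samples differed by 0.24, but that value sets 1 single sample against another and not against a mean. Over the members alone H9-A4 (0.21) was within the range of the other clones (0.20 to 0.31), and the parental samples differed by 0.11. Whether its label as DIP2C+/- is right was not tested and could not be checked from counts summed over a gene. Below it is the clone labelled DIP2C+/-. Of the 48 members, 18 (37.5%) lay outside the range of the other 8 libraries in H9-A4, against 28.9% of all genes tested. Every result below is therefore given with and without H9-A4 where the call differs.

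Polycomb complexes keep developmental genes silent. PRC2 methylates lysine 27 of histone H3 through EZH2 or EZH1, PRC1 ubiquitinates histone H2A through RING1 or RNF2, and their activities recruit one another. SWI/SNF complexes use ATP to move or evict nucleosomes and oppose Polycomb at many genes, HDACs remove acetyl groups, EHMT1, EHMT2, SETDB1 and SUV39H1 methylate lysine 9 of H3, and KDM6B removes the mark that PRC2 sets. Genes of these complexes are recurrently mutated or misexpressed in colorectal and other cancers.

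Promoter windows of the 4 members on which the results below turn most are shown first, a pair that was lower in clones (EZH2 and PHF19) and a pair that was higher (HDAC9 and KDM6B). Each is the 250 bases before the annotated start, 5′ to 3′ on the gene's strand, from RefSeq on build GRCh38.p14. Capitals mark matches to CCAAT or to the AP-1 motif TGANTCA, in either orientation. The windows lie at chr7:148884292-148884541 (minus strand) for EZH2, chr9:120868912-120869161 (minus) for PHF19, chr7:18495499-18495748 (plus) for HDAC9 and chr17:7833967-7834216 (plus) for KDM6B.
EZH2: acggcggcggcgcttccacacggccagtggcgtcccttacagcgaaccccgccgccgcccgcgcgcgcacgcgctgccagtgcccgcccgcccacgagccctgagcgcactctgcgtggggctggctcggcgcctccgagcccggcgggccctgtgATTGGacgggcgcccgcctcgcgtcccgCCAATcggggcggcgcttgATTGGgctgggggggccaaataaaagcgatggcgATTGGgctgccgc
PHF19: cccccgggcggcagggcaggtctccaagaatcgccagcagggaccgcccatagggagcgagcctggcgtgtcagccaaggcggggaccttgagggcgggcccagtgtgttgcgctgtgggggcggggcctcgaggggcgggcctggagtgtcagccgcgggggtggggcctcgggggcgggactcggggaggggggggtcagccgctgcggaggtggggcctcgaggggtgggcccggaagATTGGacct
HDAC9: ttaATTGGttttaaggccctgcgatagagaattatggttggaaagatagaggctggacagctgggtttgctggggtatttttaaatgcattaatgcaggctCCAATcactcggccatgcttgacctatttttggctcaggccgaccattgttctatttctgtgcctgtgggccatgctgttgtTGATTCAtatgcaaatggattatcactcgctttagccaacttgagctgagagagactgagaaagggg
KDM6B: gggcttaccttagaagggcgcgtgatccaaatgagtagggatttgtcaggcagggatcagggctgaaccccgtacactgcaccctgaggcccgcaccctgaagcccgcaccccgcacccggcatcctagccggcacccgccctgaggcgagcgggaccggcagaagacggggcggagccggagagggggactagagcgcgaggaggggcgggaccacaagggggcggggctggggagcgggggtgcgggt
The EZH2 window held 4 CCAAT matches and 38 CpG dinucleotides, the PHF19 window 1 CCAAT match and 21 CpG, and the KDM6B window no match to any motif searched and 21 CpG. The HDAC9 window was poor in CpG, with 4, and held 2 CCAAT matches and 1 AP-1 match. RefSeq windows were matched for 40 of the 48 members, with a median of 21 CpG (1 to 44), against 20 over 10859 genes tested. CCAAT was found in 15 of the 40 (37.5%) against 34.7% of all windows, AP-1 in 2 (5.0%) against 4.15%, the E2F motif (TTTGGCGC or TTTCGCGC) in 1 (2.5%), that of HELLS, against 1.54%, and the E-box CAGGTG in 5 (12.5%) against 16.2%. These matches describe letters in a window. HDAC9 has annotated starts far upstream of the window shown, and counts summed over a gene do not tell which start was used.

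The question was which of these genes differed between DIP2C-targeted clones and parental cells. With all 9 libraries, edgeR's quasi-likelihood test with Benjamini-Hochberg adjustment over all genes called no member in any of the 4 comparisons, and few genes were called at all. For DIP2C-/- clones against parental cells, 0 members were called against 0.00644% of all genes tested, and 5 members (JARID2, PHF19, CBX2, HDAC3 and HDAC9) had an unadjusted p under 0.05, which is 10.4% against 12.7%. For DIP2C+/- clones, 0 members were called against 0.0966%, and 6 (EZH2, PHF19, HDAC3, HDAC9, HELLS and KDM6B) had an unadjusted p under 0.05, 12.5% against 11.6%. For the average of all 7 clones, 0 were called against 0.18%, and 5 (EZH2, PHF19, HDAC3, HDAC9 and KDM6B) had an unadjusted p under 0.05, 10.4% against 13.4%. Between DIP2C+/- and DIP2C-/- clones, 0 members were called against 0.0% of all genes, and 7 (RING1, CBX2, PCGF2, ARID1A, CBX3, HELLS and ATRX) had an unadjusted p under 0.05, 14.6% against 5.57%. The DESeq2 Wald test called more genes but also 0 members: against 2.26% of the genes it tested for DIP2C-/- clones, 1.31% for DIP2C+/- clones, 2.28% for the average of all clones and 0.0578% between the genotypes. The comparisons with parental cells share the 2 parental samples.

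H9-A4 was set apart on these same values, and leaving it out narrows the spread that the test uses. Adjusted p-values without it are therefore likely too small, here and in every other paragraph. Without H9-A4, 6 members were called in the average of the other 6 clones. HDAC9, KDM6B and PHC2 were higher, 3 of 48 (6.25%) against 4.48% of all genes, and EZH2, JARID2 and PHF19 were lower, also 6.25%, against 4.47%. In the 4 remaining DIP2C+/- clones, HDAC9, KDM6B and PHC2 were higher (6.25% against 4.37%) and EZH2 was lower (2.08% against 3.58%). In the DIP2C-/- clones HDAC9 was higher (2.08% against 2.32%) and 0 members were lower (against 2.44%). Between the DIP2C genotypes 0 members were called, against 0.0% of all genes. A fit of the 4 DIP2C-/- and parental libraries alone called HDAC3, HDAC9 and KDM6B higher (6.25% against 5.74%) and JARID2, PHF19 and CBX2 lower (6.25% against 6.82%). The members were thus called about as often as genes at large. In the fit of the 4 libraries the spread comes only from the DIP2C-/- clones, which share an origin, and the parental samples. The spread between the parental samples may be technical. Adjusted p-values of that fit are therefore also likely too small, here and below.

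The median log2 fold change of the 48 members in the average of all clones was -0.01, with 21 above 0 and 27 below, beside 0.02 over all genes tested. Without H9-A4 it was -0.03 beside 0.01. The members varied little: between the parental samples the median absolute log2 difference was 0.11 over members and 0.24 over all genes tested, and between E3 and C10 it was 0.09 and 0.23. Between single clones and the parental mean it was 0.20 to 0.31 over members, against 0.25 to 0.36 over all genes. These comparisons were not matched for abundance. A mean of at least 10 CPM was reached by 47 of the 48 members, but by 9585 of the 15532 genes tested, and low counts vary more. The plot of all members by clone shows this narrow band and the few genes outside it.

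**Figure D1:**
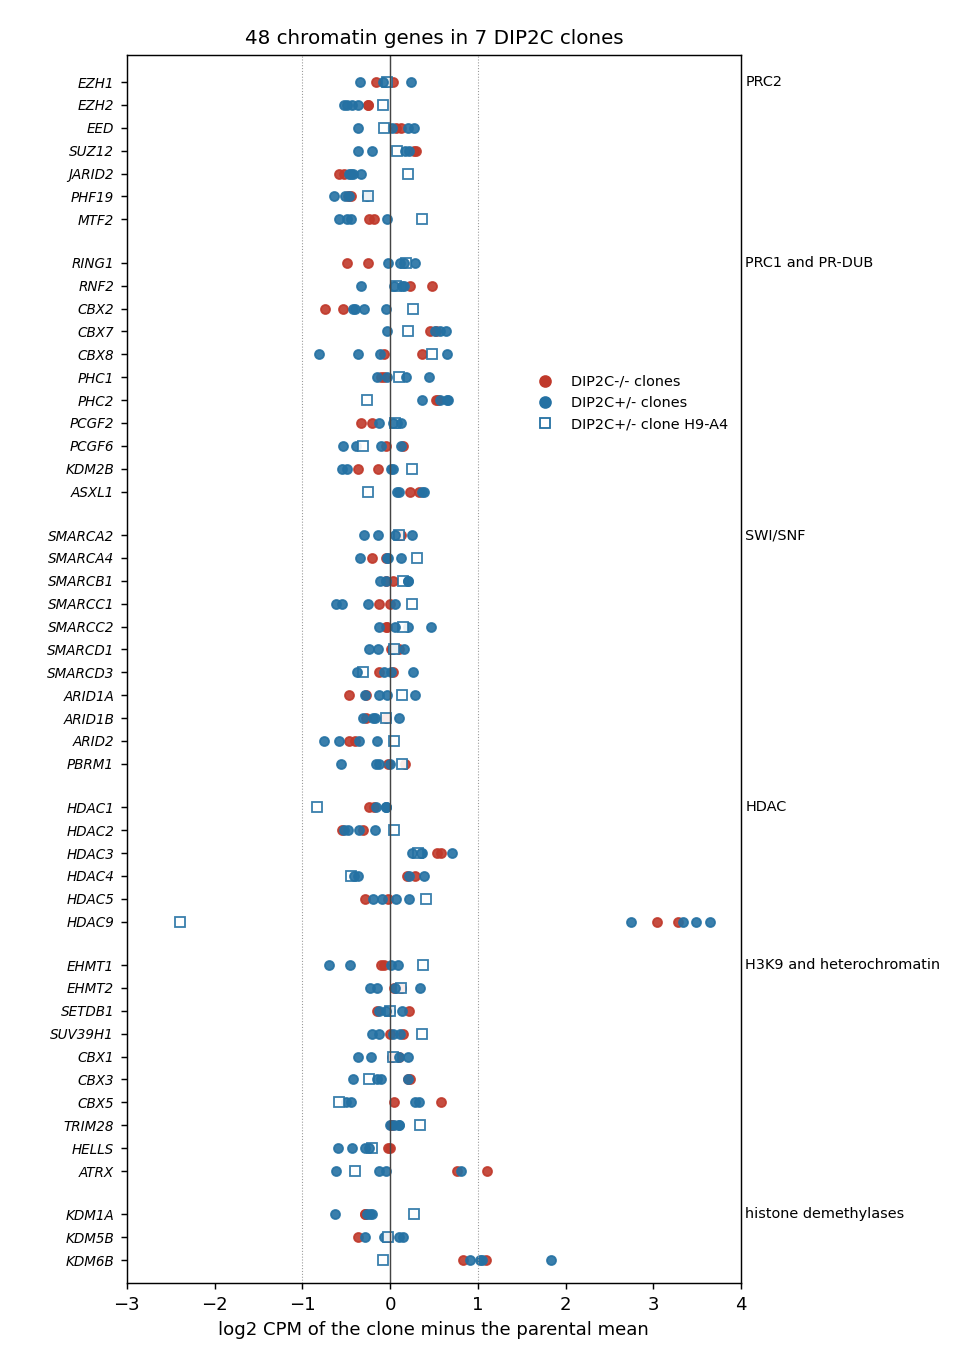
Each row is a member and each point a clone, at its log2 CPM minus the mean of the 2 parental samples; open squares are clone H9-A4, and dotted lines mark 2-fold. Most points lie within 2-fold of parental cells, and HDAC9 stands past 2-fold in each of 6 clones, up to 3.65, while H9-A4 lies at -2.39.

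A difference of at least 2-fold from the parental mean was confined to HDAC9, KDM6B and ATRX among the 47 members with a mean of at least 10 CPM, 6.38% against 14.4% of 9585 such genes. HDAC9 passed 2-fold in every clone, downwards in H9-A4. By clone, 1 member passed it in E3 (2.08% against 14.4% of all genes tested), 3 in C10 (6.25% against 11.9%), 2 in F6-A7 (4.17% against 14.1%), 1 in H9-A4 (2.08% against 7.44%), 2 in A9-A12 (4.17% against 13.9%), 1 in G1-A5 (2.08% against 12%) and 2 in A6-C9 (4.17% against 14.0%). KDM6B accounted for the further member in C10, F6-A7, A9-A12 and A6-C9, and ATRX for another in C10. The shares by clone are over all genes tested and were not matched for abundance. All 7 clones lay above both parental samples for HDAC3 (2.08% against 5.41%) and below both for EZH2 and PHF19 (4.17% against 5.54%). Leaving out H9-A4, the other 6 clones lay above for PHC2, HDAC3, HDAC9 and KDM6B (8.33% against 12.4%) and below for EZH2, JARID2, PHF19, MTF2, ARID2, HDAC2 and KDM1A (14.6% against 11.5%).

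Of the 7 PRC2 members, 5 had a negative log2 fold change in the average of all clones, and none passed the test with all libraries. The 5 include EZH1 at only -0.05 (SE 0.163), while EED (0.04) and SUZ12 (0.08) were above 0. The median of the 7 was -0.20, or -0.32 without H9-A4, beside 0.02 and 0.01 over all genes tested. Another 6 PRC2 genes outside the members had medians of -0.06 and -0.08, with 0 called in either fit. EZH2, the methyltransferase (chr7:148504349-148581413 on hg19, minus strand), stood at 144 and 136 CPM in parental cells, 118 and 118 in DIP2C-/- clones, and 99.7, 133, 104, 97.5 and 109 in DIP2C+/- clones. Every clone was below both parental samples, H9-A4 by the least. Its log2 fold change in the average of all clones was -0.33 (SE 0.135, edgeR adjusted p = 0.332), and -0.38 without H9-A4 (SE 0.106, edgeR adjusted p = 0.0478). PHF19, a Polycomb-like protein that brings PRC2 to CpG islands, stood at 156 and 166 CPM in parental cells, 118 and 115 in DIP2C-/- clones, and 134, 135, 113, 103 and 116 in DIP2C+/- clones. Clones and parental samples did not overlap, whereas the DIP2C-/- values lay within the range of the DIP2C+/- clones. Here H9-A4 lay with F6-A7. Its log2 fold change was -0.43 (SE 0.131, edgeR adjusted p = 0.278), and -0.47 without H9-A4 (SE 0.121, edgeR adjusted p = 0.037).

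JARID2, a PRC2 cofactor without demethylase activity, stood at 39.3 and 39.1 CPM in parental cells, 27.3 and 26.2 in DIP2C-/- clones, and 28.3, 45.4, 28.6, 29.3 and 31.2 in DIP2C+/- clones. H9-A4 was the highest of all libraries and the other 6 clones were below both parental samples. The log2 fold change was -0.35 (SE 0.19, edgeR adjusted p = 0.451) and, without H9-A4, -0.46 (SE 0.128, edgeR adjusted p = 0.0478). MTF2, a second Polycomb-like protein, showed the same arrangement, with 48.3 and 49.4 CPM in parental cells, 62.7 in H9-A4 and 32.6 to 47.7 in the other clones, and passed no test (log2 fold change -0.32 without H9-A4, edgeR adjusted p = 0.259). The core partners of EZH2 did not follow it. EED, which reads the methyl mark, ranged from 16.2 to 25.1 CPM in clones around parental values of 19.4 and 22.2, and SUZ12, the scaffold, from 68.5 to 108 around 89.1 and 86.3. EZH1, the less active paralogue, stood at 35.4 and 35.7 CPM in parental cells and 28.1 to 41.9 in clones. Per kb of canonical transcript, EZH2 was 6.64 to 7.1 times EZH1 in parental samples 6.66 times in H9-A4, which lies within the parental range, and 4.54 to 6.45 times in the other clones, which lie below it.

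**Figure D2:**
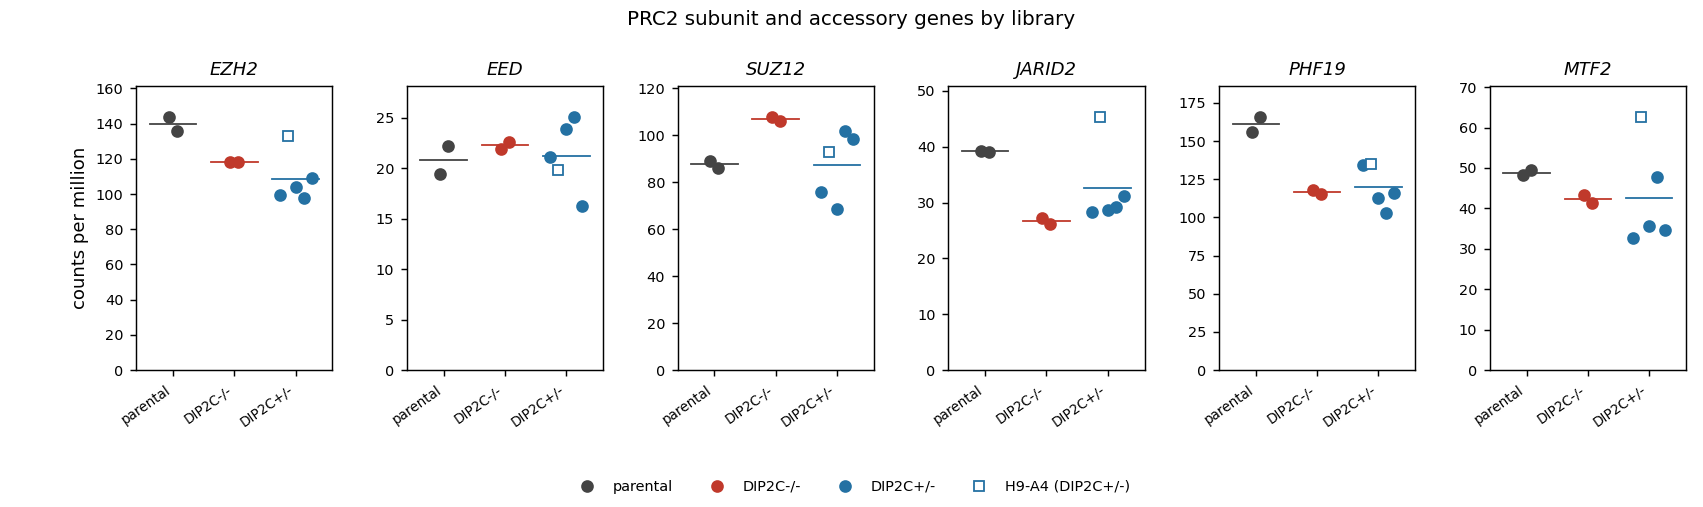
CPM of the PRC2 genes EZH2, EED, SUZ12, JARID2, PHF19 and MTF2 in each library (points), with the mean of each group (lines) and H9-A4 as an open square; each axis starts at 0. EZH2 and PHF19 are below both parental samples in all 7 clones, JARID2 and MTF2 in the 6 other than H9-A4, and EED and SUZ12 overlap them.

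EZH2 and HELLS are known to follow the cell cycle, so the level of 15 proliferation genes is given beside them. Their summed level was 5370 to 5550 CPM in parental cells, 4400 to 4520 in DIP2C-/- clones, 5670 in H9-A4 and 4200 to 4480 in the remaining DIP2C+/- clones. This sum, EZH2 and JARID2 were each below both parental samples in the 6 clones other than H9-A4. So were PHF19, MTF2, ARID2, HDAC2 and KDM1A among the members, and 11.5% of all genes tested. In H9-A4 the sum and JARID2 were above both parental samples, whereas EZH2 was below both. HELLS was not below both parental samples in each of the 6 other clones. It was at 59.4 and 59.9 CPM in DIP2C-/- clones, beside 60.8 and 59.4 in parental cells, and at 51.9 in H9-A4. The part of proliferation in the levels of these members was not tested. Of 16 genes widely described as PRC2 targets, 8 passed the filter. In the average of all clones edgeR called 0 of the 8, against 0.18% of all genes tested. An unadjusted p under 0.05 was found for 2, against 13.4%, and DESeq2 called 1, CDKN1C, against 2.28%. Without H9-A4, edgeR called 2 of the 8 higher (CDKN2A and GATA4), against 4.48% of all genes, and 1 lower (CDKN1C), against 4.47%. CDKN2A, which encodes cell cycle inhibitors, stood at 1.21 and 1.67 CPM in parental cells, 13.2 to 24.9 in 6 clones and 0.113 in H9-A4, which is under the limit of 3 counts. CDKN1C went the other way, with 6.55 and 7.31 CPM in parental cells, 1.18 to 2.32 in the same 6 clones and 5.1 in H9-A4.

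The PRC1 and PR-DUB genes split evenly, with 5 of 11 above 0 and a median log2 fold change of -0.01. PHC2, a polyhomeotic subunit that clusters PRC1 (chr1:33789224-33896696), stood at 150 and 117 CPM in parental cells, 190 and 194 in DIP2C-/- clones, and 197, 111, 207, 170 and 209 in DIP2C+/- clones. H9-A4 was the lowest library and the other 6 clones were above both parental samples. The log2 fold change was 0.45 (SE 0.225, edgeR adjusted p = 0.41), and 0.54 without H9-A4 (SE 0.138, edgeR adjusted p = 0.0331). CBX7, a chromobox protein that binds the PRC2 mark and restrains CDKN2A in other cells, stood at 22.2 and 20.1 CPM in parental cells, 29.1 and 30.3 in DIP2C-/- clones, and 30.2, 24.3, 31.4, 20.7 and 33.0 in DIP2C+/- clones. Only G1-A5 lay between the parental samples, and CBX7 passed the test neither with H9-A4 (0.43, SE 0.198, edgeR adjusted p = 0.382) nor without it (0.46, edgeR adjusted p = 0.173).

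CBX2, another chromobox protein, stood at 81.4 and 90.9 CPM in parental cells, 59.0 and 51.4 in DIP2C-/- clones, and 69.8, 103, 83.0, 65.0 and 64.1 in DIP2C+/- clones. With all libraries its log2 fold change in DIP2C-/- clones was -0.64 (SE 0.231, edgeR adjusted p = 0.341). Without H9-A4 it was -0.64 (SE 0.17, edgeR adjusted p = 0.0578). In the fit of the 4 DIP2C-/- and parental libraries, whose adjusted p-values are likely too small, it was -0.65 (SE 0.145, edgeR adjusted p = 0.0199). Per kb of transcript, the ratio of CBX7 to CBX2 was 0.307 and 0.249 in parental cells, 0.265 in H9-A4 and 0.359 to 0.664 in the other clones. RING1, a catalytic PRC1 ligase, was lower in both DIP2C-/- clones than in every other library. It stood at 30.4 and 36.3 CPM in parental cells, 23.6 and 27.9 in DIP2C-/- clones and 32.8 to 40.6 in DIP2C+/- clones, with an unadjusted edgeR p of 0.00889 between the genotypes that did not pass adjustment. RNF2, the more widely used ligase, was at 24.1 and 25.7, 29.3 and 34.8, and 19.8 to 27.8 CPM in the same order of groups. Of the rest, PHC1 ranged from 39.3 to 58.9 CPM in clones, PCGF2 (MEL18) from 56.7 to 77.1, PCGF6 from 23.1 to 37.2, KDM2B, which brings a variant PRC1 to CpG islands, from 72.6 to 127, and ASXL1, the PR-DUB cofactor, from 118 to 183. CBX8 was the only member with a mean under 10 CPM, at 4.13 to 13.3, and these extremes were the parental samples themselves.

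SWI/SNF genes stayed close to parental levels. Of 11, 8 had a negative log2 fold change in the average of all clones, with a median of -0.07 and a range from -0.36 (ARID2) to 0.11 (SMARCC2), and none was called in the fits with all libraries or without H9-A4. ARID2, which defines the PBAF form of the complex, stood at 87.0 and 86.3 CPM in parental cells, 65.8 and 62.4 in DIP2C-/- clones, and 58.1, 89.3, 68.0, 78.3 and 51.5 in DIP2C+/- clones. H9-A4 was the highest library and the other 6 clones lay below both parental samples, with a log2 fold change of -0.44 (SE 0.153, edgeR adjusted p = 0.108) without H9-A4. SMARCC1, a scaffold subunit, stood at 269 and 249 CPM in parental cells, 237 and 258 in DIP2C-/- clones, and 269, 307, 177, 169 and 217 in DIP2C+/- clones, so clones and parental cells overlapped (-0.15, SE 0.212, edgeR adjusted p = 0.814). The ATPase SMARCA4 had a parental mean of 380.0 CPM and lay between -0.34 and 0.31 of it on the log2 scale in clones, and its alternative SMARCA2 ranged from 77.8 to 114 CPM around 85.7 and 107. Per kb, SMARCA4 was 3.79 to 4.41 times SMARCA2 in parental cells and 3.34 to 4.75 times in clones. ARID1A, the BAF subunit most often mutated in cancer, stood at 131 and 135 CPM in parental cells and 95.9 to 161 in clones, and ARID1B at 79.9 and 102 and 72.8 to 96.8. SMARCB1 (135 to 169 CPM in clones), SMARCC2 (183 to 277), SMARCD1 (154 to 203), SMARCD3 (50.7 to 79.3) and PBRM1 (58.2 to 96) all overlapped the parental samples.

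HDAC9, a class IIa deacetylase that works mainly as a corepressor of MEF2 factors, had the largest fold change of the 48 members in each comparison with parental cells. It stood at 8.81 and 7.57 CPM in parental cells, 68.1 and 80.3 in DIP2C-/- clones, and 55.7, 1.47, 92.6, 104 and 83.8 in DIP2C+/- clones. Every clone other than H9-A4 was far above both parental samples, and H9-A4 was below both. With all libraries the log2 fold change in the average of all clones was 3.08 (SE 1.06, edgeR adjusted p = 0.313). Without H9-A4 it was 3.30, a fold of 9.84 (SE 0.257 on the log2 scale, edgeR adjusted p = 2.18e-05), and 3.18 in the DIP2C-/- clones (SE 0.276, edgeR adjusted p = 9.25e-05). Per kb it was the least abundant member in parental cells, at 0.829 CPM, and reached a mean of 7.03 CPM over the clones. DIP2C+/- clones without H9-A4 and DIP2C-/- clones did not differ in HDAC9 at the threshold (0.18, SE 0.216, 95% interval upper bound 0.60, edgeR adjusted p = 0.876). In bulk RNA, a higher level per cell and a larger share of cells that express a gene cannot be told apart.

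HDAC3, the catalytic subunit of the NCOR corepressor complexes (chr5:141000443-141016416), was the member whose 7 clones all lay above parental cells. It stood at 114 and 110 CPM in parental cells, 163 and 168 in DIP2C-/- clones, and 143, 139, 143, 133 and 184 in DIP2C+/- clones. The log2 fold change in the average of all clones was 0.45 (SE 0.143, edgeR adjusted p = 0.29), and 0.48 without H9-A4 (SE 0.14, edgeR adjusted p = 0.0604). In DIP2C-/- clones it was 0.56 with all libraries (SE 0.174, edgeR adjusted p = 0.318). In the fit of DIP2C-/- and parental libraries alone, whose adjusted p-values are likely too small, it was 0.55 (SE 0.118, edgeR adjusted p = 0.0171). HDAC1 and HDAC2 share the SIN3, NuRD and CoREST complexes. HDAC1 stood at 278 and 260 CPM in parental cells, 151 in H9-A4 and 228 to 261 in the other clones, and HDAC2 at 82.8 and 75.1 in parental cells, 81.8 in H9-A4 and 54.0 to 70.0 in the other clones. Neither was called. Per kb, HDAC1 was 8.48 times HDAC2 in H9-A4 and 15.4 to 21.7 times in the other 8 libraries. The class IIa genes HDAC4 (9.12 to 16.2 CPM in clones, 13.1 and 11.7 in parental cells) and HDAC5 (40.8 to 65.8, and 53.7 and 45.7) overlapped the parental samples.

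**Figure D3:**
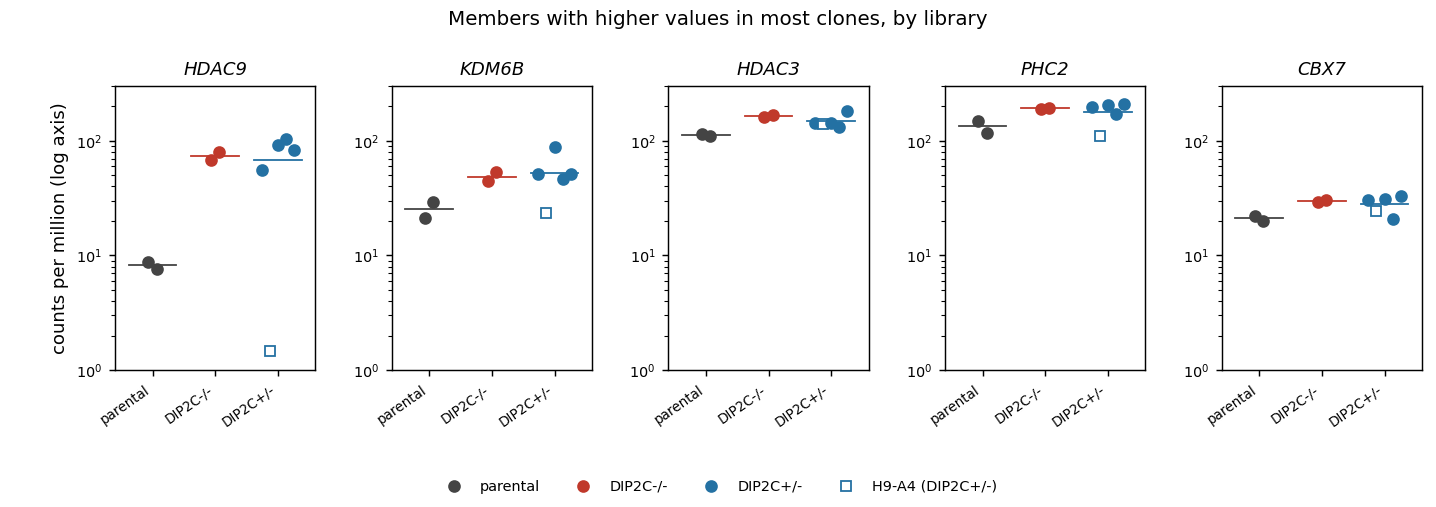
CPM (log axis, 1 to 300) of HDAC9, KDM6B, HDAC3, PHC2 and CBX7 in each library (points), with group means (lines) and H9-A4 as an open square. HDAC9 is at 55.7 to 104 CPM in 6 clones, at 7.57 and 8.81 in parental cells and at 1.47 in H9-A4, whereas HDAC3 is above parental cells in all 7 clones.

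The genes of H3K9 methylation and heterochromatin stayed near parental levels, with a median log2 fold change of 0.01 and 6 of 10 above 0. HELLS, a remodeller needed for DNA methylation at repeats, stood at 60.8 and 59.4 CPM in parental cells, 59.4 and 59.9 in DIP2C-/- clones, and 44.7, 51.9, 39.8, 50.8 and 49.2 in DIP2C+/- clones. The DIP2C+/- clones lay below all the other libraries, with an unadjusted edgeR p of 0.0352 against DIP2C-/- clones that did not pass adjustment. ATRX, which loads histone H3.3 into heterochromatin, stood at 15.0 and 34.6 CPM in parental cells, 38.8 and 49.5 in DIP2C-/- clones, and 40.0, 17.2, 14.9, 22.1 and 20.9 in DIP2C+/- clones. The parental samples differed from each other more than 2-fold, and leaving out parental sample 1 turned the log2 fold change of the average of all clones from 0.16 to -0.33, and leaving out parental sample 2 raised it to 0.88, none of them past the test. TRIM28, the KRAB corepressor, was the most abundant member per kb, at 268 CPM in parental cells, and ranged from 901 to 1150 CPM in clones around 872 and 934. SETDB1, which it recruits, ranged from 39.2 to 50.6 CPM around 40.5 and 46.7. EHMT1 (96 to 202 CPM in clones), EHMT2 (105 to 156), SUV39H1 (29.5 to 43.8) and the HP1 genes CBX1 (68.8 to 102), CBX3 (137 to 217) and CBX5 (112 to 250) overlapped the parental samples.

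Among the demethylases, KDM6B, which removes the PRC2 mark (chr17:7737535-7758114), stood at 21.1 and 29.5 CPM in parental cells, 44.4 and 53.1 in DIP2C-/- clones, and 51.1, 23.6, 89.3, 46.9 and 51.6 in DIP2C+/- clones. The other 6 clones were above both parental samples, A9-A12 by the most, and H9-A4 lay between the parental samples. The log2 fold change was 1.02 (SE 0.387, edgeR adjusted p = 0.324), and 1.14, a fold of 2.21, without H9-A4 (SE 0.26, edgeR adjusted p = 0.0201). KDM1A (LSD1), which demethylates H3K4 within CoREST, stood at 302 and 269 CPM in parental cells, 234 and 233 in DIP2C-/- clones, and 246, 343, 244, 184 and 238 in DIP2C+/- clones. H9-A4 was the highest library and the other 6 clones lay below both parental samples (-0.31 without H9-A4, SE 0.132, edgeR adjusted p = 0.182). KDM5B, an H3K4 demethylase, ranged from 75.8 to 108 CPM in clones around 88.5 and 107.

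**Figure D4:**
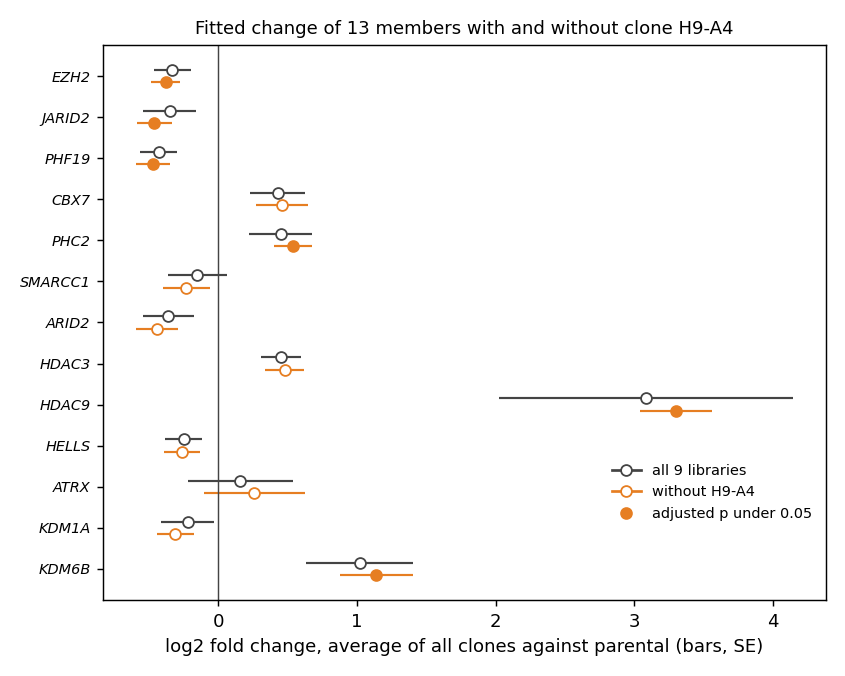
Log2 fold change (bars, SE) of 13 members in the average of all clones against parental cells, from the fit of all 9 libraries (grey) and the fit without H9-A4 (orange); filled points have an adjusted p under 0.05. No member is filled with all 9 libraries and 6 are filled without H9-A4, where the bar of HDAC9 shrinks from 1.06 to 0.257.

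Of the other genes of these pathways, 122 were in the files and 121 passed the filter. In the average of all clones edgeR called 0 of the 121, against 0.18% of all genes tested. An unadjusted p under 0.05 was found for 15 of 121, against 13.4%. DESeq2 called 3 of 121 (BCL7C, BCOR and KAT2A), against 2.28%. In edgeR without H9-A4, 4 of 121 were called higher (BCOR, KAT2A, SIRT6 and KDM5C), against 4.48% of all genes. Another 3 were called lower (BCL7C, KAT6A and TRRAP), against 4.47%. The 5 with the largest fold changes among those of at least 10 CPM were BCL7C, a SWI/SNF subunit (-0.79, SE 0.175, edgeR adjusted p = 0.17), KAT2A, an acetyltransferase (0.74, SE 0.153, edgeR adjusted p = 0.133), BCOR, a variant PRC1 subunit (0.71, SE 0.14, edgeR adjusted p = 0.121), BMI1, a PRC1 subunit (-0.64, SE 0.24, edgeR adjusted p = 0.323), and SIRT6, a deacetylase (0.60, SE 0.189, edgeR adjusted p = 0.289), all with all libraries. DMAP1, the predicted partner of DIP2C, stood at 24.7 and 27.4 CPM in parental cells and at 21.7 to 38.5 in clones, which overlap.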

How the data were processed

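Per the study's methods, Ion Proton reads were aligned to hg19 with TopHat2 (2.0.4) and quantified per gene with Cufflinks, given as 2.2.1 in the submitters' processing notes. The authors deposited estimated counts per gene for each library; low values were whole multiples of a library-specific step (97.8 to 98.5% within 0.02 of a step), so the values had been rescaled. These estimated counts were rounded and tested with edgeR 4.0.16 in R 4.3.3 (filterByExpr, TMM, 1 coefficient per group, quasi-likelihood F test, Benjamini-Hochberg adjustment over all genes tested, threshold 0.05) in all 9 libraries. DESeq2 1.42.0, other scalings, filters and left-out libraries were alternatives. The code was tested on simulated data. CPM are TMM-scaled; log2 CPM used a prior count of 2, and "per kb" used canonical transcript lengths of GENCODE 44. Gene coordinates are hg19. Reads that paralogues share may have been split between them.

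The members and the lists of other genes were chosen with earlier results of these data known. Values in every library are given for members called with all libraries or without H9-A4, members with all 7 clones on 1 side of parental cells, and the 2 largest changes of each complex. MTF2, CBX2 and other members or pathway genes with values were added to these as context after their values were seen. No replicates were pooled, and pairs of replicates differed by more than sampling noise (chi-square per degree of freedom 20.7 to 136.7).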

Additional observations from a re-analysis of the deposited data

Results flagged for a closer look

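Within the 5 DIP2C+/- clones, 5 of the 48 members had a clone that lay far from the other 4 (the gap to the nearest clone over the whole range exceeded Dixon's 95% critical value of 0.71). That is 10.4% of the members, against 7.28% of all genes tested, and chance gives about 1 such group in 20. JARID2 was highest in H9-A4, at 45.4 CPM against 28.3 to 31.2 in the other clones and 39.1 to 39.3 in parental cells. HDAC1 was lowest in H9-A4, at 151 CPM against 240.0 to 261 in the other clones and 260.0 to 278 in parental cells. HDAC9 was lowest in H9-A4, at 1.47 CPM against 55.7 to 104 in the other clones and 7.57 to 8.81 in parental cells. RNF2 was lowest in F6-A7, at 19.8 CPM against 25.6 to 27.8. HDAC3 was highest in A6-C9, at 184 CPM against 133 to 143. Of the 5, 3 were in H9-A4, as were 53.5% of such clones over all genes tested. H9-A4 is the clone in which 37.5% of the members and 28.9% of all genes tested lay outside the range of the other 8 libraries.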

How the results depend on the processing

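The 208 values compared were log2 fold changes in the average of all clones, for 13 members with values in every library under 16 alternative settings. Of these, 201 kept their direction and their side of the threshold. No member was called with all libraries, so keeping the side meant staying uncalled. Calls in the comparisons of single genotypes are not among the 208. Leaving out H9-A4 brought 6 past the threshold (EZH2, JARID2, PHF19, PHC2, HDAC9 and KDM6B), and ATRX ranged from -0.326 without parental sample 1 to 0.881 without parental sample 2; the cause was not tested. Leaving out 1 library at a time gave 0 to 1 members called higher in DIP2C-/- clones, 0 to 3 higher and 0 to 1 lower in DIP2C+/- clones, and 0 to 3 higher and 0 to 3 lower in the average of all clones, and every count above 0 came from leaving out H9-A4. With only the compared groups in the fit, 3 members were called higher and 3 lower in DIP2C-/- clones. Members with every clone above both parental samples numbered 1 to 4 and below both 2 to 7 when 1 library was left out. Members at least 2-fold from the parental mean numbered 1 to 3 in E3, 1 to 3 in C10, 1 to 4 in F6-A7, 2 in H9-A4 and 2 in G1-A5 with 1 parental sample left out, and 1 in A6-C9 with library size only or with at least 10 counts in every sample. No paired analysis was possible because the labels give clones and parental samples no shared replicate numbers. With 2 parental samples, small differences could be missed. The coefficient of variation within groups, estimated over all genes tested and not for the members, was 0.2975 with all libraries and 0.2419 without H9-A4.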
